A study of Mus musculus with 4 samples.

Results

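The genes described here are 10 genes of pluripotent mouse cells: Nanog, Sall4, Utf1, Dppa2, Dppa4, Lin28a, Fbxo15, Tdgf1, Trh and Apela. They were taken as a list, chosen with earlier results of these data known, and found by gene symbol among 23185 named genes. All 10 had a probe set. RNA of 4 populations was hybridised, 1 Affymetrix array per population. These were iPS cells made from club cells, the secretory cells of the airway lining; uncultured club cells isolated from adult lung (Day0); club cells after 3 weeks with doxycycline (3w+Dox, called Club-iPL in the labels); and such cells after 2 further weeks without the drug (3w+Dox+2w-Dox, called withdrawn cells below). Doxycycline is used to switch on inducible transgenes, and the series title speaks of interrupted reprogramming. The labels name no mouse strain, genotype, transgene, sort or feeder layer, and no array of club cells cultured without the drug was analysed here, so the drug and time in culture cannot be told apart.

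Pluripotent cells keep themselves in that state through a network of transcription factors centred on Oct4, Sox2 and Nanog, which bind enhancers of each other and of many target genes. Around this core stand chromatin factors, RNA-binding proteins and secreted signals that are made in the early embryo and in embryonic stem cells and are silent in most adult tissues, adult lung among them. In reprogramming, genes of this network are usually switched on late, so their RNA is often used to tell cells that have become pluripotent from cells that have only begun to change. Trh and Apela are secreted-peptide genes rather than factors of the core network, and both are also made outside pluripotent cells.

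Signals are log2 values, so a difference of 1 is 2-fold and a difference of 2 is 4-fold. Counts of higher and lower genes take those whose signals on 2 arrays are 4-fold or more apart, with the brighter signal no lower than 6.67, the median over the whole table. With 1 array per population there is no spread between replicates, so no p-value was computed and precision is limited by how few arrays there are. Array medians lay between 6.60 and 6.74. Probe sets differ in how strongly they bind, so signals are compared between arrays for the same gene. As a guide to dim probe sets, 1354 genes of olfactory and vomeronasal receptors, which serve smell and pheromone sensing, had medians between 3.50 and 3.67 on the 4 arrays and 95th percentiles between 5.64 and 5.82. Of the 10 genes, 10 were above that percentile in iPS cells, 5 at Day0, 5 at 3w+Dox and 3 in withdrawn cells, so part of them were not among the dimmest probe sets on any array. These levels are a description only.

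None of the 10 genes was switched on in the doxycycline cultures by the measure used here. All 10 were bright in iPS cells, from 10.19 for Dppa4 to 12.93 for Utf1, and dim on the other 3 arrays, where the highest signal of any of them was 6.58, for Sall4 at 3w+Dox. The count at least 4-fold higher was 10 of 10 in iPS cells against Day0, where 4.89% of all named genes were, 10 of 10 against 3w+Dox (3.57% of all named genes) and 10 of 10 against withdrawn cells (3.83%). These 3 comparisons share the iPS array, and their counts describe a list of genes known for this pattern. The count at least 4-fold apart in either direction was 0 of 10 for 3w+Dox against Day0 (7.19% of all named genes), 0 of 10 for withdrawn cells against Day0 (5.9%) and 0 of 10 for withdrawn cells against 3w+Dox (0.772%). Because all 10 were under 6.67 on these arrays, the filter by itself fixed these counts at 0. With a 2-fold threshold and no filter on dim signals the counts were again 0 of 10 in each of these, where 18.2%, 17.4% and 4.03% of all named genes were that far apart. Dim genes are counted less often: of the 1354 receptor genes of the dim guide, 49, 45 and 19 were that far apart. With 10 genes, a count of 0 cannot be told from shares as small as these or as the 4-fold shares above. The count of the 10 genes for 3w+Dox against Day0 depends on the scaling: with each array centred on the olfactory and vomeronasal receptor genes, Tdgf1 stood at 1.01, just past 2-fold, and 1 of 10 was reached. For genes this dim on both arrays, counts of 0 are read as values below both thresholds and not as proof that no RNA was there.

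**Figure D1:**
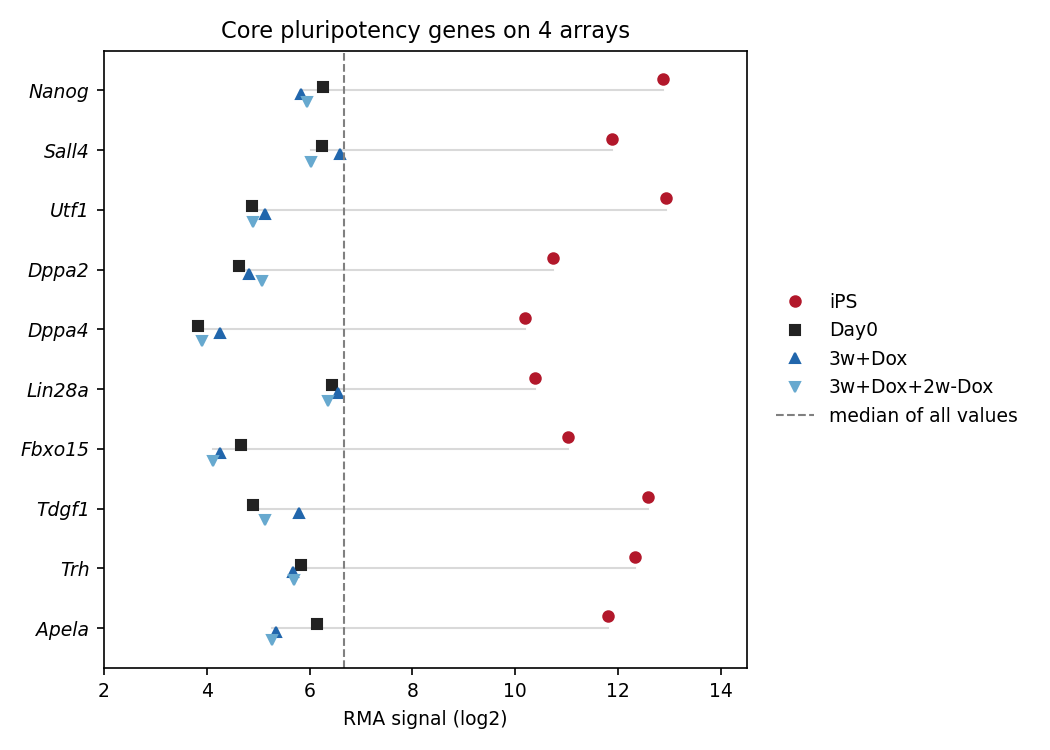
RMA signal (log2, x axis) of the 10 genes (rows) in iPS cells (red circles), at Day0 (black squares), at 3w+Dox (dark blue triangles) and in withdrawn cells (light blue inverted triangles), 1 array each; the dashed line is the median over the whole table, 6.67. Every red circle is at 10.19 or higher, and every other symbol is at 6.58 or lower.

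Markers of other cells did move between these arrays. All 12 measured fibroblast genes were 4-fold or more above Day0 at 3w+Dox, and their median signal was 9.41 in iPS cells, against 5.98 at Day0, 11.94 at 3w+Dox and 11.91 in withdrawn cells. All 9 measured leukocyte genes were also 4-fold or more above Day0 at 3w+Dox, with median signals of 6.89 in iPS cells, 6.45 at Day0, 9.78 at 3w+Dox and 9.88 in withdrawn cells. The 8 measured genes of club cells ran the other way, and 8 in iPS cells and 6 at 3w+Dox were 4-fold or more below Day0. Over all 23185 named genes, 1000 were 4-fold or more above Day0 at 3w+Dox and 667 as far below. In iPS cells 1368 of them (5.9%) were as far below. In bulk RNA, fewer cells of a type and less RNA per cell cannot be told apart, and a signal shared by a few cells is diluted by all others.

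The promoters of 6 of the 10 genes matched a RefSeq table of mouse promoters (build GRCm38.p6), and the 250 bases before the gene start were searched on both strands for letters of the Oct4 and Sox2 sites. They are shown because the genes were bright on the same array and because Oct4 and Sox2 are known to bind side by side in front of Nanog. The octamer ATGCAAAT was in 0 of the 6 and in 1.81% of 27025 genes with a promoter, and with its last base left free it was in 2 of the 6, Nanog and Apela, and in 4.64% of all. The Sox letters CATTGT were in 2 of the 6, Nanog and Lin28a, and in 12.2% of all, and with the second base left free in 4 of the 6 and in 39.9% of all. The Sox letters followed by any base and then the full octamer were in 0 of the 6 and in 0 of the 27025 genes. With the last base of the octamer free, this joined motif was in 1 gene of 27025, and that gene was Nanog. This joined motif contains both single motifs, and which bases were left free was settled after the Nanog promoter had been read.

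The 3 promoters with such letters are printed 5′ to 3′ on the strand of the gene, from 250 bases before the start to the last base before it. Capitals mark the first 7 letters of the octamer and the full Sox letters, on either strand. Nanog lies on the plus strand at chr6:122707239-122707488, Apela on the minus strand at chr8:65037337-65037586 and Lin28a on the minus strand at chr4:134018817-134019066.
Nanog promoter: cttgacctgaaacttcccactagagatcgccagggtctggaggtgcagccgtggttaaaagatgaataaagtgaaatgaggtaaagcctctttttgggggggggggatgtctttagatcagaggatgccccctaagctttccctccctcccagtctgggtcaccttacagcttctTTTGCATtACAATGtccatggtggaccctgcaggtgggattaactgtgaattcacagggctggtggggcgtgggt
Apela promoter: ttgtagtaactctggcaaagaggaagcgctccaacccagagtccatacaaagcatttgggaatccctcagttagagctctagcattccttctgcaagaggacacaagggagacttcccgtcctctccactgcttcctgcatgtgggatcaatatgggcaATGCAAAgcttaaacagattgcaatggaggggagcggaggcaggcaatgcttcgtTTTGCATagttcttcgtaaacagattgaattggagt
Lin28a promoter: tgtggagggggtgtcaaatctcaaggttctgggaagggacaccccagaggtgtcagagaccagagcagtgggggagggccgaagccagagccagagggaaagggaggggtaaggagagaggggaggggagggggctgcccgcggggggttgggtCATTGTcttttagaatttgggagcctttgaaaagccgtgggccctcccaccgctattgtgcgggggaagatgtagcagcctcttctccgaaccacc
In Nanog the joined match covers bases -76 to -62 before this start, in the reverse direction (chr6:122707413-122707427), and for a further RefSeq start of the gene it covers bases -152 to -138. Apela has matches of the octamer with its last base free, not of the full octamer, at bases -91 to -84 and -37 to -30. Lin28a has its Sox match at bases -96 to -91. The windows of Utf1, Tdgf1 and Trh hold neither the 7 octamer letters nor the full Sox letters. A match of letters is a description and does not show that a factor was bound.

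Nanog and Sall4 encode sequence-specific transcription factors. Nanog (Entrez gene 71950), the homeobox factor that keeps mouse embryonic stem cells independent of some outside signals, read 12.87 in iPS cells, against 6.27 at Day0, 5.83 at 3w+Dox and 5.96 in withdrawn cells. The iPS signal was 96.9-fold that of Day0 and 131-fold that of 3w+Dox. On the doxycycline array Nanog lay 0.43 below Day0 and was the second lowest of the 10 by this difference. Sall4 (Entrez gene 99377), a zinc finger factor that cooperates with Oct4 and Nanog, read 11.87 in iPS cells, against 6.24 at Day0, 6.58 at 3w+Dox and 6.02 in withdrawn cells. Its iPS signal was 49.4-fold that of Day0. Sall4 was 0.34 above Day0 at 3w+Dox and 0.22 below it in withdrawn cells, both well within 2-fold.

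The Sall family has 3 further members, and they did not share one pattern. Sall1, which also takes part in the embryonic stem cell network and in kidney development, read 11.10 in iPS cells, against 5.86 at Day0, 6.59 at 3w+Dox and 6.72 in withdrawn cells. Its iPS signal was 38.0-fold that of Day0. Sall2 read 6.86 in iPS cells, against 6.62 at Day0 and 6.81 at 3w+Dox, and was 0.38 above Day0 in withdrawn cells, and Sall3 read 6.38, against 5.98, 5.61 and 5.62 on the same 3 arrays. Both were within 2-fold of Day0 on every array.

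Utf1, Dppa2 and Dppa4 encode proteins of chromatin. Utf1 (Entrez gene 22286), a chromatin-associated factor named for undifferentiated embryonic cells and a target of Oct4 and Sox2, read 12.93 in iPS cells, against 4.88 at Day0, 5.13 at 3w+Dox and 4.89 in withdrawn cells. The iPS signal was 266-fold that of Day0 as deposited, but the Day0 signal is near background and the ratio is not exact. With signals under 5.07 raised to that level the log2 difference was 7.87, against 8.06 as deposited, and it was the largest of the 10 either way.

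Dppa2 and Dppa4 are neighbouring genes whose SAP domain proteins form a pair that binds DNA. Dppa2 (Entrez gene 73703) read 10.74 in iPS cells, against 4.62 at Day0, 4.83 at 3w+Dox and 5.07 in withdrawn cells. Dppa4 (Entrez gene 73693) read 10.19 in iPS cells, against 3.83 at Day0, 4.25 at 3w+Dox and 3.91 in withdrawn cells. The iPS signal was 69.3-fold that of Day0 for Dppa2 and 81.7-fold for Dppa4, against Day0 signals near background. With signals under 5.07 raised to that level, the log2 difference was 5.67 for Dppa2 and 5.12 for Dppa4, so their order turned. Among the 3 other arrays their order differed: Dppa2 was highest in withdrawn cells, 0.45 above Day0, and Dppa4 was highest at 3w+Dox, 0.41 above Day0. The other genes with Dppa names also differed from them. Dppa3, a maternal factor that shields DNA methylation and also called Stella, read 8.40 in iPS cells, against 5.17 at Day0, 4.32 at 3w+Dox and 4.91 in withdrawn cells. Dppa5a read 5.30 in iPS cells, against 5.08, 4.74 and 4.73 on those arrays, so its iPS signal was within 2-fold of each of the other 3.

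Lin28a (Entrez gene 83557), an RNA-binding protein that blocks maturation of let-7 microRNAs, had the smallest iPS difference of the 10. It read 10.38 in iPS cells, against 6.43 at Day0, 6.55 at 3w+Dox and 6.35 in withdrawn cells. The ratio of iPS to Day0 was 15.4-fold, and the 3 non-pluripotent arrays differed by 0.20 at most. Its paralog Lin28b read 6.58 in iPS cells, against 4.02 at Day0, 3.83 at 3w+Dox and 3.68 in withdrawn cells. Lin28b was 5.89-fold brighter in iPS cells than at Day0 and was not counted, since its iPS signal is under 6.67.

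Fbxo15 (Entrez gene 50764) encodes an F-box protein of ubiquitin ligases, and its locus served as the reporter in early mouse reprogramming experiments. Fbxo15 read 11.03 in iPS cells, against 4.67 at Day0, 4.26 at 3w+Dox and 4.12 in withdrawn cells. The ratio of iPS to Day0 was 82.3-fold, and both doxycycline arrays were below Day0, by 0.41 at 3w+Dox and 0.55 in withdrawn cells. These 3 signals are near background. With signals under 5.07 raised to that level, the log2 difference of iPS from Day0 was 5.96, against 6.36 as deposited, and both decreases became 0. The constant subunits of these ligases showed no such pattern: Skp1 read 11.91 in iPS cells and 11.96 at Day0, Cul1 9.96 and 9.87, and Rbx1 7.23 and 7.65.

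Tdgf1 (Entrez gene 21667), also called Cripto, is a membrane-anchored co-receptor for the growth factor Nodal. Tdgf1 read 12.59 in iPS cells, against 4.90 at Day0, 5.79 at 3w+Dox and 5.14 in withdrawn cells. Its iPS signal was 206-fold that of Day0, against a Day0 signal near background. With signals under 5.07 raised to that level, the log2 difference from Day0 was 7.52 in iPS cells and 0.72 at 3w+Dox. Tdgf1 had the largest positive difference of the 10 at 3w+Dox, 0.89 above Day0 or 1.85-fold, and in withdrawn cells it was 0.23 above Day0. That difference of 0.89 is under the 2-fold threshold as the signals were deposited and just over it, at 1.01, after centring on the receptor genes of the dim guide. As deposited it equals 11.6% of the iPS difference on the log2 scale and 0.416% of it on the linear scale.

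Genes of the Nodal pathway around Tdgf1 differed from Day0 by unequal amounts in iPS cells. Nodal itself read 9.11 in iPS cells, against 5.66 at Day0, 5.54 at 3w+Dox and 5.49 in withdrawn cells. Gdf3, a related ligand, was 25.6-fold brighter in iPS cells than at Day0, and the feedback inhibitors Lefty2 and Lefty1 were 75.7-fold and 13.2-fold brighter. The Day0 signal of Lefty2, 4.51, is near background, so its ratio is not exact. Foxh1, the transcription factor through which Nodal signals reach DNA, read 9.13 in iPS cells, against 5.49 at Day0, 5.36 at 3w+Dox and 5.74 in withdrawn cells. The paralog Cfc1, a co-receptor of the same family, stayed between 6.22 and 6.41 on all 4 arrays. Of the receptors, Acvr1b read 9.71 in iPS cells and 9.78 at Day0, and Acvr2b read 8.48 and 6.50. Acvr2a was 2.15-fold brighter at 3w+Dox than at Day0, with 9.11 at 3w+Dox, 1.11 above Day0. Acvr1c was dim throughout, with 4.40 at 3w+Dox and 5.01 at Day0, and Smad2, which carries the signal into the nucleus, lay between 10.40 and 10.52 on all 4 arrays.

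Trh (Entrez gene 22044) encodes the precursor of thyrotropin-releasing hormone, known best from the hypothalamus. Trh read 12.33 in iPS cells, against 5.83 at Day0, 5.68 at 3w+Dox and 5.69 in withdrawn cells. It was the steadiest of the 10 on the non-pluripotent arrays, which spanned 0.15, and its iPS signal was 90.6-fold that of Day0. The receptors of the hormone were dim everywhere: Trhr read 3.94 in iPS cells and 4.09 at Day0, and Trhr2 read 5.75 and 5.47.

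Apela (Entrez gene 100038489) encodes a short secreted peptide, also called Elabela or Toddler, that acts on the apelin receptor in the embryo. Apela read 11.81 in iPS cells, against 6.15 at Day0, 5.35 at 3w+Dox and 5.27 in withdrawn cells. The iPS signal was 50.5-fold that of Day0, and at 3w+Dox Apela had the lowest difference of the 10, 0.80 below Day0, with 0.88 below it in withdrawn cells. Apln, the gene of the other ligand of the same receptor, had a different order of arrays. Apln read 7.62 in iPS cells, against 5.03 at Day0, 9.65 at 3w+Dox and 10.28 in withdrawn cells, which makes it 24.5-fold brighter at 3w+Dox than at Day0. The receptor gene Aplnr read 5.27 in iPS cells, against 6.02 at Day0, 6.28 at 3w+Dox and 5.57 in withdrawn cells, so it was under 6.67 on every array. Fibroblast genes (12 of 12) and leukocyte genes (9 of 9) were at least 4-fold higher on the 3w+Dox array, and their part in the Apln signal was not tested.

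**Figure D2:**
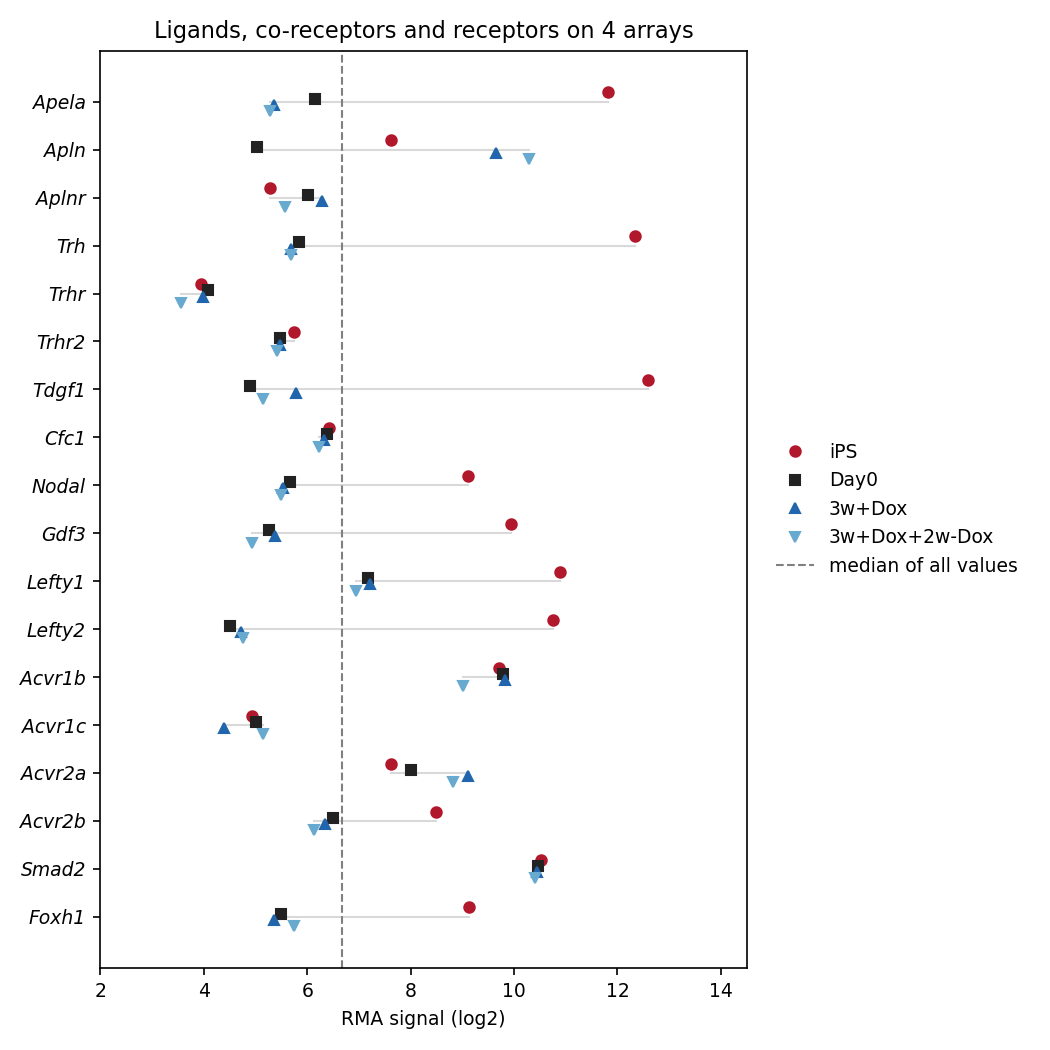
RMA signal (log2, x axis) of Apela, Trh and Tdgf1 and of genes of their pathways (rows) in iPS cells, at Day0, at 3w+Dox and in withdrawn cells, 1 array each; the dashed line is the median over the whole table, 6.67. Apela is brightest in iPS cells at 11.81, and Apln is brightest in withdrawn cells at 10.28, while the receptor gene Aplnr stays at 6.28 or lower.

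Of the 18 paralogs, receptors and partners measured, 3 were at least 4-fold higher in iPS cells than at Day0 (4.89% of all named genes) and 0 were as much lower (5.9%). The median difference was 0.08, against 6.36 for the 10 genes and 0.00 for all named genes. The 3 were Sall1, Foxh1 and Apln. At 3w+Dox only Apln, 1 of the 18, lay 4-fold or more above Day0, and 0 lay as far below; over all named genes 7.19% were this far apart, so the count is near the background.

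The doxycycline arrays were then set against Day0 gene by gene. The 10 differences of 3w+Dox from Day0 lay between -0.80 and 0.89, with a median of 0.16, against -0.09 for all named genes and -0.12 for the olfactory and vomeronasal receptor genes. Of the 10 genes, 6 were above Day0 and 4 below. For comparison, 95% of the 1354 receptor genes had differences between -1.02 and 0.66 on the same arrays, a range looked up after the values of the 10 genes had been seen. Tdgf1, at 0.89, was the only one of the 10 beyond that range. The differences of withdrawn cells from Day0 lay between -0.88 and 0.45, with a median of -0.11, against -0.08 for all named genes, and 95% of the receptor genes lay between -0.97 and 0.68. All 10 genes were inside that second range. Between withdrawn cells and 3w+Dox the 10 differences lay between -0.66, for Tdgf1, and 0.25, for Dppa2. The first 2 sets of differences share the Day0 array.

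**Figure D3:**
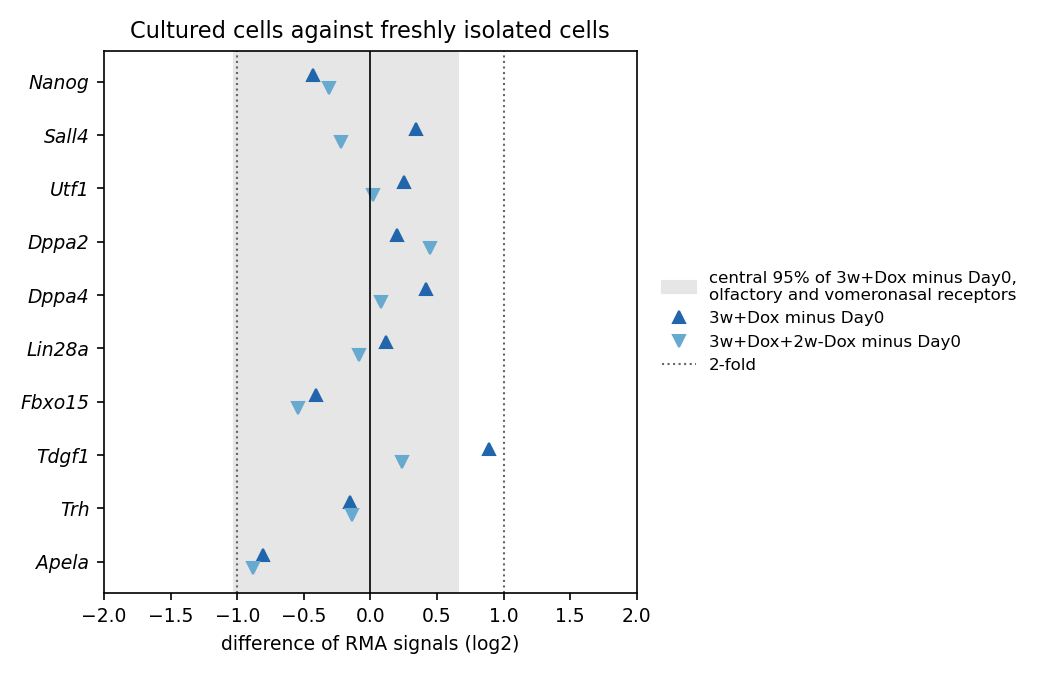
Difference of RMA signals (log2, x axis) from Day0 for the 10 genes (rows) at 3w+Dox (dark blue) and in withdrawn cells (light blue), 1 array each; dotted lines mark 2-fold and the grey band holds the central 95% of the 3w+Dox differences of 1354 olfactory and vomeronasal receptor genes. As deposited, all 20 symbols are within 2-fold, from -0.88 for Apela in withdrawn cells to 0.89 for Tdgf1 at 3w+Dox.

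How small an iPS-like signal the arrays could show differed from gene to gene. On the linear scale, the 3w+Dox signal minus the Day0 signal was between -0.862% (Apela) and 0.578% (Lin28a) of the iPS signal minus the Day0 signal, with a median of 0.146%. Adding 1% of the iPS signal to the Day0 signal would by arithmetic raise Utf1 by 1.87, Tdgf1 by 1.61 and Nanog by 0.98, but Lin28a by only 0.21. Only Utf1 and Tdgf1, 2 of the 10, would pass 2-fold in this way. The measured difference at 3w+Dox was below that arithmetic rise for 10 of 10 genes, with 0.25 for Utf1, 0.89 for Tdgf1 and -0.43 for Nanog. That count does not test a 1% signal in each gene. For 4 genes, Nanog, Fbxo15, Trh and Apela, the measured difference was negative and so below a rise of any size. The rises of Lin28a (0.21), Sall4 (0.58) and Apela (0.59) lay inside the receptor gene range given above, -1.02 to 0.66. With 1 array per population, such rises cannot be told from differences seen among dim genes. The arithmetic takes the signal to be proportional to RNA, which was not calibrated and holds least well near background, so these percentages are not shares of cells.

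The wider network was measured through 37 of 39 other pluripotency genes. Of these, 32 were at least 4-fold higher in iPS cells than at Day0 (4.89% of all named genes) and 0 at least 4-fold lower (5.9%), with a median of 3.72. The largest differences were those of Nr0b1, an orphan nuclear receptor also called Dax1, by 6.55, Lefty2 by 6.24, Mybl2, a cell cycle factor of the Myb family, by 5.97, and Tet1, an enzyme that oxidises methylated cytosine, by 5.96. Klf5, at -0.01, was the only one of the 37 below Day0 in iPS cells. The factors Pou5f1, which encodes Oct4, and Sox2 had smaller iPS differences, 2.67 and 1.42, than any of the 10 genes, whose lowest was 3.95. Pou5f1 read 8.87 in iPS cells, against 6.20 at Day0, 6.51 at 3w+Dox and 5.87 in withdrawn cells, so its own signal was within 2-fold of Day0 on both doxycycline arrays. Sox2 is also a factor of airway epithelium, and it read 12.07 in iPS cells and 10.65 at Day0.

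At 3w+Dox the share of the wider network apart from Day0 was near that of all named genes (2 of 37, against 7.19%). Of the 37, 1 was at least 4-fold higher, Tbx3, a T-box factor, by 2.08, and 1 at least 4-fold lower, Sox2, at -2.21. The next largest increases were those of Slc7a3, a transporter of cationic amino acids, by 1.78, Tet1 by 1.21 and Tfcp2l1, a factor of the naive state, by 0.95. The next largest decreases were those of Klf5, a factor also made in airway epithelium, at -1.88, Zfp296 at -1.40 and Dppa3 at -0.85. The median over the 37 was -0.06, against -0.09 for all named genes. Slc7a3 read 7.06 at 3w+Dox and 5.28 at Day0, and Tbx3 read 8.66 and 6.58. Tfcp2l1 read 10.70 at 3w+Dox and was already bright at Day0, at 9.75, with 11.40 in iPS cells. Fibroblast genes (12 of 12) and leukocyte genes (9 of 9) were at least 4-fold above Day0 on the same array, as were 1000 of the 23185 named genes. The part of either cell type in the Tbx3, Slc7a3 and Tet1 signals was not tested. In withdrawn cells 0 of the 37 were at least 4-fold from Day0 in either direction (5.9% of all named genes), with Tbx3 at 1.99.

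**Figure D4:**
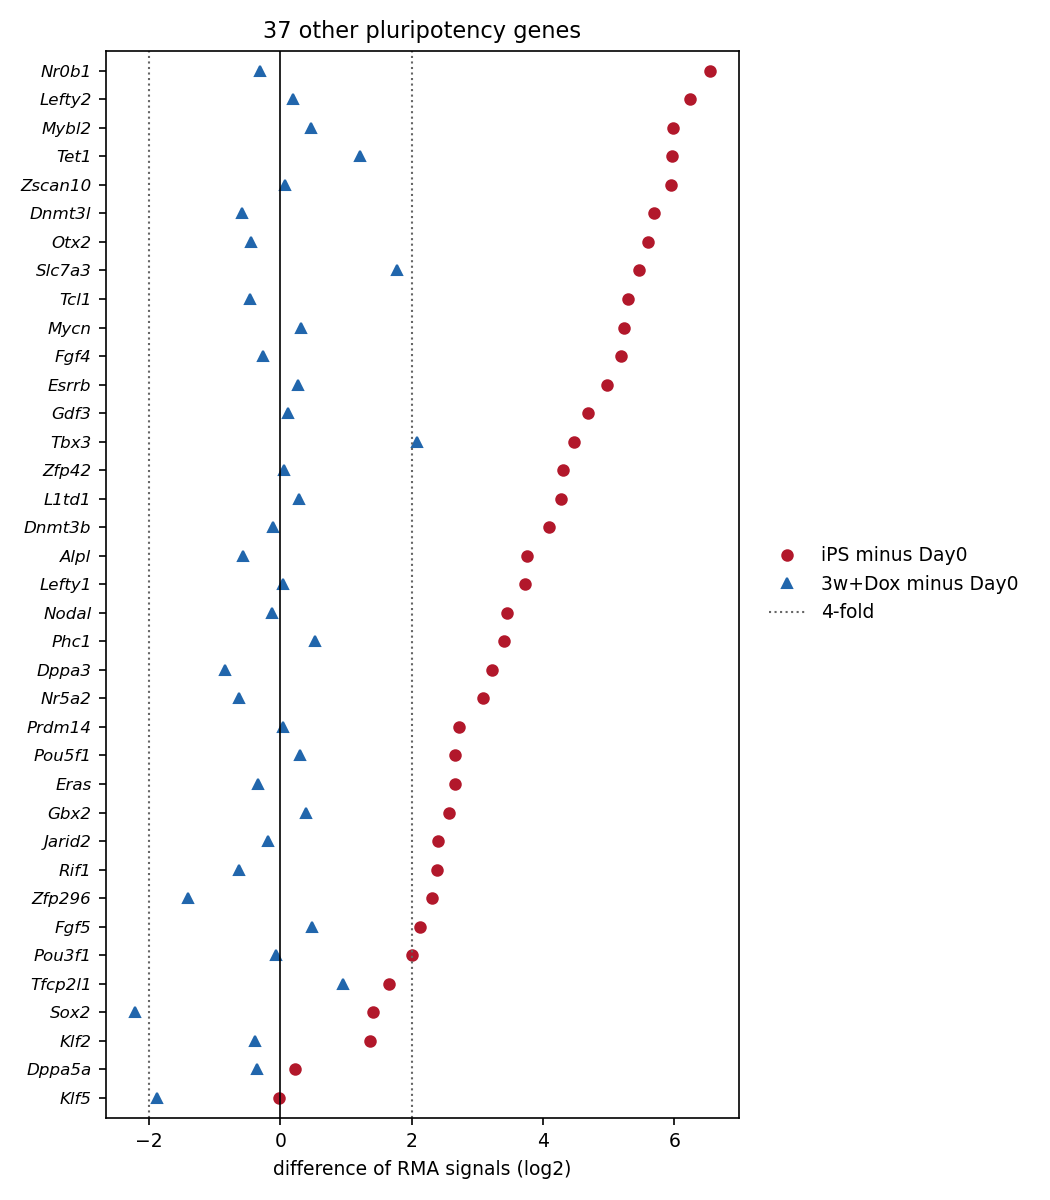
Difference of RMA signals (log2, x axis) for 37 other pluripotency genes (rows, ordered by the iPS difference), as iPS minus Day0 (red circles) and 3w+Dox minus Day0 (blue triangles), 1 array each; dotted lines mark 4-fold. The circles run from 6.55 for Nr0b1 to -0.01 for Klf5, and of the triangles only Tbx3 (2.08) and Sox2 (-2.21) are beyond a dotted line.

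Genes with patterns like those of the 10 were sought over the 4 arrays, by the distance between signals after each gene was centred on its own mean. Nearest to the median pattern of the 10 were Zfp979, a zinc finger gene, at a distance of 0.19 log2 units, Platr10, a noncoding RNA gene, at 0.19, Nr0b1 at 0.40, Lefty2 at 0.46 and Dnmt3l, a partner of DNA methyltransferases, at 0.70. Nr0b1 was also the nearest single gene to Nanog (0.13), Trh (0.17) and Fbxo15 (0.21). Utf1 and Tdgf1 were nearest to each other (0.73), Dppa4 to Lefty2 (0.29), Dppa2 to Zscan10 (0.14), Sall4 to Gldc, an enzyme of glycine breakdown (0.29), Apela to Dnmt3l (0.48) and Lin28a to Uhrf1, which helps copy DNA methylation (0.14). With 4 arrays, of which only 1 is bright, nearness mainly says that the iPS differences are of like size. Ranked by the gap between iPS and the brightest other array, 9 of the 10 genes were among the first 25 of 23185 named genes, and Lin28a was at rank 106. The 10 genes were chosen with earlier results of these data known, so these ranks describe the list and do not test it.

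Genes of other lineages were read on the same arrays. Over all named genes, 4.89% lay 4-fold or more above Day0 in iPS cells and 5.9% lay as far below it. Of 8 germ cell genes, 4 were higher by this measure, among them Dazl, an RNA-binding protein of germ cells, with 9.44 in iPS cells and 4.63 at Day0. Of 11 germ layer genes, 1, Eomes, was at least 4-fold higher in iPS cells than at Day0, with 8.19 and 5.96, and 2, Foxa2 and Gata6, which airway epithelium also uses, were at least 4-fold lower, counts too small to set against those shares. Fibroblast genes were at least 4-fold higher in iPS cells than at Day0 for 10 of 12. Their part in the iPS signals of the 10 genes was not tested.

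Copies of a gene can add to its signal. The RefSeq gene table lists 2 pseudogenes named for Nanog and 2 for Tdgf1, and 7 copies named for Pou5f1, and how the probe sets treat them is not given in the sources used here.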

How the data were processed

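RNA of 4 populations was measured on 1 Affymetrix array each, with groups taken from the sample titles. The values are log2 signals deposited by the authors after RMA, a method that corrects background, normalizes quantiles over arrays and gives 1 value per probe set. Per the submitters' processing notes the tools were RMA, affy and R 3.0.2. The log2 scale follows from the values (1.70 to 13.85). The probe set annotation is not given in the sources used here, nor is the genome build, so gene coordinates are not used and promoter coordinates are those of RefSeq (GRCm38.p6).

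The table has 25206 probe sets named by Entrez gene ID, of which 23185 had 1 symbol in the platform annotation, 0 had several and 2021 had none and were left out. A RefSeq gene table held all 23185 IDs with 0 differing symbols, and no gene had more than 1 probe set. Signals were used as deposited, with differences and counts computed in Python 3.11.15 (pandas 2.3.3), and the counting step was tested on simulated data. With 1 array per population no test across genes was run. Alternatives were thresholds of 2-fold and 8-fold, no filter on dim signals or one at the 75th percentile (8.82), a second quantile normalization, centring on olfactory and vomeronasal receptor genes, a floor at the 25th percentile (5.07) and looser motifs.

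The 10 genes and all lists were chosen with earlier results of these data known. Named are the 10 genes, the 4 largest differences in each direction in the other lists for iPS and for 3w+Dox against Day0, direct paralogs, receptors and partners, and the nearest patterns (without predicted or clone-named genes). Other genes named in the lists were chosen after their values were seen.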

Additional observations from a re-analysis of the deposited data

How the results depend on the processing

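For the 10 genes, the counts at least 4-fold apart were the same under all alternatives tried: 10 of 10 higher in iPS cells against each other array, and 0 of 10 between the other 3 arrays. On those 3 arrays all 10 were under 6.67 as deposited, so a run that kept the filter could hardly change the 0. Only the run without a filter was free to change that count for these genes. Of their 60 differences, 60 moved by less than 0.3 log2 units with a second quantile normalization and 60 with centring on olfactory and vomeronasal receptor genes, which shifts the median of all genes for iPS minus Day0 to 0.18 (0.00 as reported). Centring moves every gene of a comparison by the same amount, at most 0.18, and the deposited values were already quantile normalized. Both runs thus had little room to move these differences. A floor at the 25th percentile moved 12 of the 60, by up to 1.23 (Dppa4, iPS against Day0), with 0 changes of direction among counted differences. Centring on receptor genes took Tdgf1 at 3w+Dox against Day0 to 1.01, past 2-fold. The small difference of Trh between withdrawn cells and 3w+Dox changed sign under both scalings. For the 37 other pluripotency genes at 3w+Dox against Day0, the count of 2 was 6 at 2-fold, 0 at 8-fold, 1 with the filter at the 75th percentile and 1 with a second quantile normalization. For withdrawn cells against Day0 the count of 0 was 6 at 2-fold and 1 with centring on receptor genes, and for withdrawn cells against 3w+Dox the count of 0 was 2 at 2-fold. Other thresholds, and Tbx3 lying close to 4-fold, account for these by construction. Depth does not apply to arrays, and signals near background limit what can be seen in dim genes. No paired analysis was possible because each population has 1 array.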
